A study of Homo sapiens with 12 samples.

Results

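CLEC3A, SGK1 and SGK3 are 3 of the 56832 gene symbols counted in 12 RNA-seq libraries of a human thyroid cancer line, and all 3 were among the 14431 genes expressed highly enough to be tested. CLEC3A and SGK1 were picked for lower counts in vehicle-treated cells with added thyroid hormone receptor beta (TRB) than in vehicle-treated cells with the empty vector, so that difference describes the choice and was not tested. SGK3 was added as a relative of SGK1 that was not picked for its values. The study asked how the supplied receptor and its hormone change transcripts in SW1736, a long-cultured cell line of anaplastic thyroid carcinoma. All libraries came from SW1736 cells with a stably introduced pCDH vector, either pCDH-TRB or the empty vector pCDH-EV (called EV here). All cells were first kept for 24 h without hormone, in medium free of phenol red and with serum stripped by charcoal. They then received 10 nM triiodothyronine (T3), the active thyroid hormone, or its NaOH vehicle for 24 h. This gave 4 groups of 3 libraries: EV with vehicle, EV with T3, TRB with vehicle and TRB with T3. The labels do not say whether replicates were separate cultures, or whether each vector line was 1 clone or a pool, so p-values measure only the spread between these libraries.

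Thyroid hormone receptors sit on DNA with or without hormone: at many target genes the empty receptor recruits corepressors, and T3 exchanges these for coactivators. SGK1 is the serum- and glucocorticoid-regulated kinase, a relative of the AKT kinases whose transcript is short-lived and is induced by serum, steroid hormones and osmotic stress. It is activated by PDPK1 and the MTOR complex that holds RICTOR, and it phosphorylates the ubiquitin ligase NEDD4L, NDRG1, FOXO transcription factors and GSK3B, through which it acts on the epithelial sodium channel and on cell survival. SGK3 is a kinase of the same family that is held at endosomes by a lipid-binding domain. CLEC3A is a secreted C-type lectin known from cartilage, related to the plasma protein tetranectin (CLEC3B), and binds plasminogen.

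In the RefSeq annotation of GRCh38.p14, SGK1 lies on the minus strand of chromosome 6 (chr6:134169256-134318112) and has 3 listed transcription starts. The sequences before these starts are shown because SGK1 is the member whose order between vectors differed with and without hormone, and because the counts are per symbol and do not tell the starts apart. They come from RefSeq on GRCh38.p14 and run 5′ to 3′ on the minus strand up to the base before the start. Capitals mark a TATA box match (TATAAA, searched on both strands, where it reads TTTATA on the opposite strand). The first, upstream of the most distant start, covers chr6:134318113-134318362. The second is cut to the bases nearest its start, chr6:134177862-134177891, and the third, upstream of the start nearest the gene's end, covers chr6:134174867-134175116.
SGK1 start A: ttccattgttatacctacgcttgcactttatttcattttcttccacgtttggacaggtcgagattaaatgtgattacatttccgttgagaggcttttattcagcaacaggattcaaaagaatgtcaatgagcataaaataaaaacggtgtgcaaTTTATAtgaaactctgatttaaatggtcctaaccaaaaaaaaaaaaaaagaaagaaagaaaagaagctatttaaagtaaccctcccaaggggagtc
SGK1 start B: cttaaattgccttgaTATAAAgtggggttc
SGK1 start C: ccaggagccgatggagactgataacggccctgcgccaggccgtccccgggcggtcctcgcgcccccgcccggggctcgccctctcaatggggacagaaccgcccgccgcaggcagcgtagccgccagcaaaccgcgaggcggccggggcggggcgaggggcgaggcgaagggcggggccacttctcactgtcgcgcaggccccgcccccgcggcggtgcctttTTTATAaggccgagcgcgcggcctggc
The windows of 250 bases before the starts differed in base composition, with a GC content of 33.6% at start A, 41.6% at start B and 76% at start C. The windows at starts B and C overlapped exons of SGK1 itself in GENCODE release 29, and that at start A did not. The TATA match lay 90 bases before start A, 9 bases before start B and 21 bases before start C. Of 35116 upstream windows of 250 bases in the RefSeq table, 10.7% held TATAAA on either strand. AGGTCA, the half-site of thyroid hormone receptors, was searched on both strands and was not among the letters of any of the 3 windows, whereas 12.1% of all windows held it. The glucocorticoid receptor palindrome, AGAACA and TGTTCT with any 3 bases between them, was in none of the 3 and in 0.00285% of all windows. These matches describe letters in short windows only. CLEC3A lies on chromosome 16 (chr16:78022548-78032101, plus strand). No exon of another gene overlaps CLEC3A or SGK1 in GENCODE release 29.

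Counts within genes totalled 3819306 to 13086717 per library, and levels are given as CPM (a gene's share of the library's counts, with the library size adjusted by TMM). THRB, the receptor's own gene, averaged 14.6 ± 1.39 CPM (SD, n = 3) in EV cells under vehicle, 14.9 ± 3.04 in EV cells under T3, 80.1 ± 0.314 in TRB cells under vehicle and 270 ± 69.8 in TRB cells under T3, so the labels of the vector held in every group, although vector and cellular transcripts are not separated. The THRB transcript was thus not level across treatments: with T3 it was 3.37-fold higher in TRB cells and 1.02-fold in EV cells. Without TRB with T3 replicate 2 the rise in TRB cells was 3.99-fold. Its part in the members' differences was not tested. TRB with T3 replicate 2 stood apart from its group: its TMM factor was 0.786, and its difference from the rest followed gene GC content with a Spearman correlation of -0.84 across genes. Other libraries followed GC content too, in the opposite direction and most in EV with T3 replicate 3 (0.82) and replicate 1 (0.71). In the same direction were EV with vehicle replicate 2 (-0.489) and EV with T3 replicate 2 (-0.25). The correlation was 0.583, 0.412 and 0.427 in TRB with vehicle, but 0.182 and 0.0209 in EV with vehicle replicates 1 and 3. The vehicle groups used for the choice thus did not overlap in it, and its part in their differences was not tested. The members' differences and the printed counts and medians of gene lists that use TRB with T3 replicate 2 are given with all 12 libraries and with the other 11. Thyroid markers were low: TSHR and FOXE1 had no count in any library, TG had a median of 0.0431 CPM and PAX8 of 4.57 CPM. The thyroid markers summed to 6.95 to 8.64 CPM in EV with vehicle, 6.48 to 7.34 in EV with T3, 8.14 to 10.9 in TRB with vehicle, and 1.08 to 5.25 for TRB with T3. The epithelial genes KRT8 (median 1490 CPM), KRT18 (1360), EPCAM (458) and CDH1 (158) were high, while the mesenchymal gene VIM had a median of 0.814 CPM. FN1, another mesenchymal gene, ran in the order of SGK1, and VIM and FN1 together summed to 10.1 to 10.9 CPM in TRB with vehicle, 15 to 17.5 in EV with vehicle, 66.4 to 74.7 in EV with T3 and 148 to 303 in TRB with T3. The part of these markers in the members' differences was not tested. The labels name the line SW1736, and whether high epithelial markers with VIM near 0 belong to that line was not tested, so the values describe the cells as labelled. In such bulk libraries, fewer cells with a transcript and less of it per cell cannot be told apart.

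CLEC3A, the cartilage lectin, nearly vanished from the counts in TRB cells without hormone and was well represented in every other group. In TRB with vehicle the libraries held 5, 4 and 8 counts, or 0.508, 0.345 and 0.671 CPM in replicates 1 to 3. In EV with vehicle they held 34, 135 and 110 counts, or 7.38, 11 and 10.1 CPM. All 3 EV libraries lay above all 3 TRB libraries, as in 20.5% of genes tested, which is how the gene was chosen. With T3, EV cells reached 73.5, 76.7 and 58.2 CPM, and TRB cells 29.8, 32.2 and 29.1 CPM. The groups thus ran from TRB with vehicle (0.508 ± 0.163 CPM, SD, n = 3) through EV with vehicle (9.51 ± 1.9) and TRB with T3 (30.4 ± 1.63) to EV with T3 (69.5 ± 9.88).

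SGK1, the inducible kinase, was lowest in the same group, TRB with vehicle, but highest in a different one. TRB with vehicle held 12.1, 12.8 and 12.3 CPM (119 to 148 counts), and EV with vehicle 26.1, 29.8 and 28.5 CPM (120 to 365 counts). With T3 the EV libraries stood at 78.1, 84.7 and 65.8 CPM and the TRB libraries at 240, 264 and 260 CPM. The order was TRB with vehicle (12.4 ± 0.332 CPM, SD, n = 3), EV with vehicle (28.1 ± 1.91), EV with T3 (76.2 ± 9.61) and TRB with T3 (255 ± 12.6). For both genes TRB with T3 replicate 2 was the highest of its group by a narrow margin.

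SGK3 lies on chromosome 8 (chr8:66712781-66862022, plus strand), where its exons overlap those of C8orf44 on the same strand in GENCODE release 29, so reads of either gene could be shared or dropped. SGK3, the endosomal relative, stayed within 3.05 to 10.3 CPM over all 12 libraries, with 15 to 78 counts in each. It stood at 3.26, 5.97 and 6.8 CPM in EV with vehicle and at 4.63, 5.49 and 3.8 in EV with T3. TRB with vehicle gave 3.05, 3.96 and 6.55 CPM, and TRB with T3 gave 5.63, 10.3 and 4.62. Every group overlapped every other, and the highest value came from TRB with T3 replicate 2, without which that group averaged 5.41 ± 0.748 CPM (n = 2) in place of 6.83 ± 3 (n = 3).

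**Figure D1:**
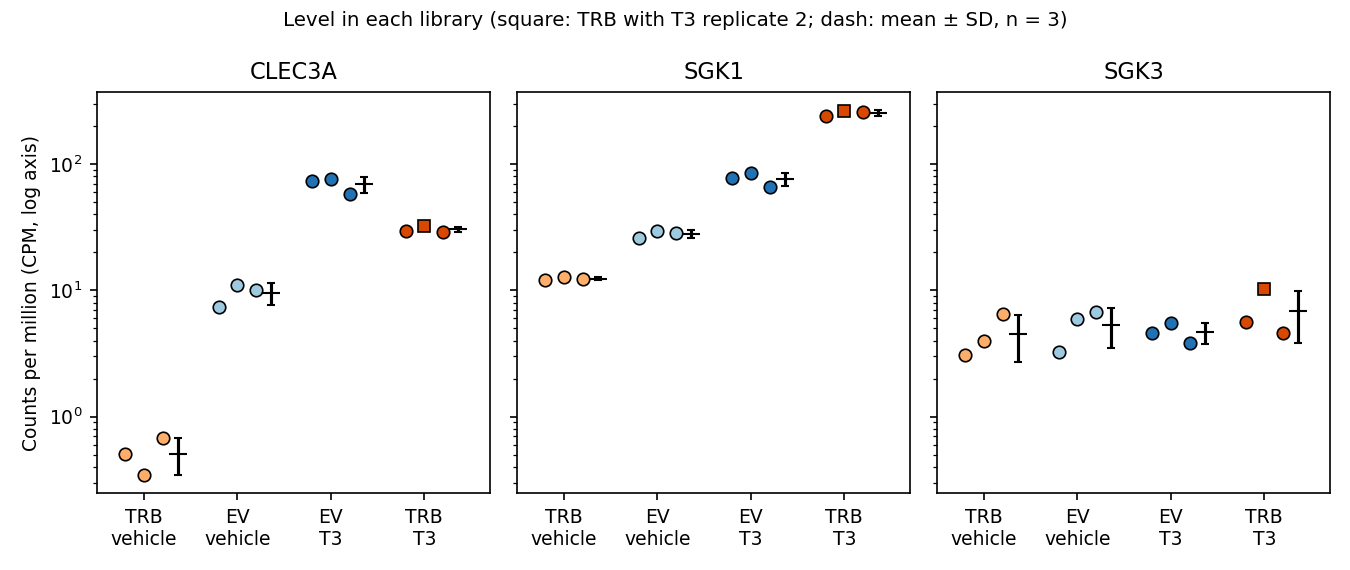
Level of CLEC3A, SGK1 and SGK3 in each of the 12 libraries, in CPM on a log axis, by group, with the group mean ± SD (n = 3) as a dash beside the points and TRB with T3 replicate 2 as a square. CLEC3A is highest in EV with T3 and SGK1 in TRB with T3, both are lowest in TRB with vehicle, and SGK3 overlaps across all groups.

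The comparison of both vectors under vehicle is the one on which CLEC3A and SGK1 were picked, so their values there are a description. CLEC3A was 18.4-fold lower in TRB cells (log2 fold change -4.20, SE 0.278), the second most negative value of 14431 genes. SGK1 was 2.27-fold lower (log2 -1.18, SE 0.151), the 47th most negative. In edgeR's quasi-likelihood test with Benjamini-Hochberg adjustment 0.0208% of genes passed in this comparison, and in 20.5% of genes all 3 TRB libraries lay below all 3 EV libraries. The number passing depended on the spread shared with the T3 libraries. It was 3 with all 12 libraries, 11 without TRB with T3 replicate 2 and 1563 with the vehicle groups fitted alone. For SGK3, which was not picked on it, the difference was -0.27 (SE 0.385), with a 95% interval of -1.12 to 0.58 and an adjusted p of 1 in edgeR. Because the SGK1 value was used for the choice, SGK1 and SGK3 were not compared in it.

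T3 against vehicle was compared within each vector, and both comparisons rest on the vehicle libraries used for the choice, so CLEC3A and SGK1 are again described without a test. In EV cells, which carry only their own receptor genes, CLEC3A was 7.25-fold higher with T3 (log2 2.86, SE 0.231) and SGK1 2.71-fold higher (log2 1.44, SE 0.15). They ranked 19th and 164th from the top of 14431 genes. In TRB cells CLEC3A was 58.1-fold higher with T3 (log2 5.86, SE 0.287) and SGK1 20.5-fold higher (log2 4.36, SE 0.169), the 43rd and 80th largest increases. In each comparison all 3 T3 libraries lay above all 3 vehicle libraries for both genes, as they did in 11% of genes tested in EV cells and in 17.3% of those tested in TRB cells. SGK3 did not pass in EV cells (log2 -0.22, SE 0.396, 95% interval -1.09 to 0.66, edgeR adjusted p = 0.941) or in TRB cells (log2 0.57, SE 0.385, 95% interval -0.28 to 1.42, edgeR adjusted p = 0.333). The T3 effect on the log2 scale was larger in TRB than in EV cells by 3.0 (SE 0.348) for CLEC3A and by 2.92 (SE 0.213) for SGK1, values that include the choice of low vehicle libraries in TRB cells. For SGK3 that difference was 0.78 (SE 0.552, edgeR adjusted p = 0.394). Over the 11 libraries other than TRB with T3 replicate 2, T3 in TRB cells gave 5.87 (log2, SE 0.251) for CLEC3A, 4.38 (SE 0.132) for SGK1 and 0.23 (SE 0.315, edgeR adjusted p = 0.625) for SGK3. The differences between the vectors' T3 effects were then 3.02, 2.94 and 0.46 (edgeR adjusted p = 0.517 for SGK3).

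The comparison of both vectors under T3 sets against each other libraries other than the 6 vehicle libraries by which the genes were chosen, and here the pair went opposite ways. Its differences rest on the 6 libraries with T3, but its p-values use a spread estimated over all 12, the vehicle libraries included. CLEC3A was lower in TRB cells, 30.4 ± 1.63 against 69.5 ± 9.88 CPM (SD, n = 3 each), a 2.29-fold difference (log2 -1.20, SE 0.217, 95% interval -1.67 to -0.72, edgeR adjusted p = 0.00833). SGK1 was higher in TRB cells, 255 ± 12.6 against 76.2 ± 9.61 CPM, a 3.34-fold difference (log2 1.74, SE 0.151, 95% interval 1.41 to 2.07, edgeR adjusted p = 0.000156). In edgeR 6.68% of genes passed in either direction, 4.13% higher and 2.55% lower. For each gene the 3 libraries of one vector did not overlap the 3 of the other, which 11.6% of genes did with TRB higher and 14.7% with TRB lower. SGK3 did not pass (log2 0.52, SE 0.396, 95% interval -0.36 to 1.39, edgeR adjusted p = 0.397). Leaving out TRB with T3 replicate 2 gave -1.19 for CLEC3A (edgeR adjusted p = 0.00032), 1.77 for SGK1 (edgeR adjusted p = 7.66e-07) and 0.17 for SGK3 (edgeR adjusted p = 0.783), with 19.7% of 14825 genes passing. Leaving out EV with T3 replicate 1 or 3, the other libraries that followed GC content most, gave -1.16 and -1.30 for CLEC3A (edgeR adjusted p at most 0.041) and 1.75 and 1.66 for SGK1 (edgeR adjusted p at most 0.00214). Both calls depended on the shared spread: they were lost when the 6 libraries with T3 were fitted without the vehicle libraries, with log2 differences of -1.18 for CLEC3A (edgeR adjusted p = 0.13) and 1.75 for SGK1 (edgeR adjusted p = 0.0572).

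**Figure D2:**
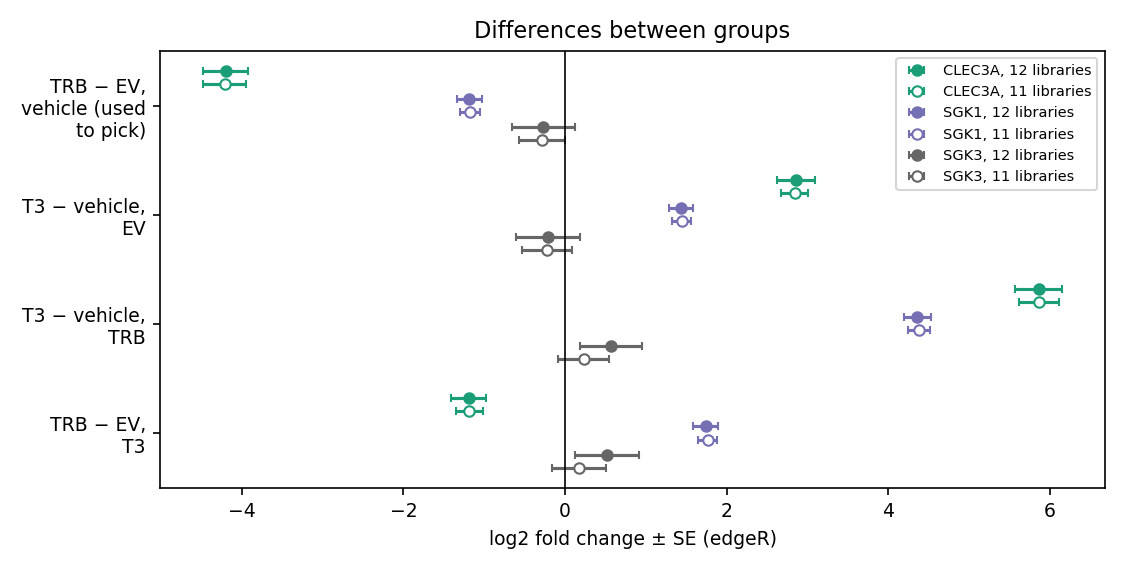
Log2 fold change ± SE from edgeR for CLEC3A, SGK1 and SGK3 in the 4 comparisons of groups, with all 12 libraries (filled) and without TRB with T3 replicate 2 (open). Under vehicle CLEC3A and SGK1 both lie below 0, by the way they were chosen, and under T3 CLEC3A lies below 0 and SGK1 above it.

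The steroid receptors known to induce SGK1 were absent from most libraries or low. NR3C1, the glucocorticoid receptor, had 0 to 2 counts per library and was too low to test. NR3C2, the mineralocorticoid receptor, averaged 2.54 ± 0.469 CPM (SD, n = 3) for EV with vehicle, 2.66 ± 0.909 for EV with T3, 1.97 ± 0.188 for TRB with vehicle and 2.45 ± 0.414 for TRB with T3. Of 25 genes listed as glucocorticoid receptors and responsive genes, 20 were tested. None passed under vehicle between the vectors, where FKBP5, a chaperone of steroid receptors, differed by -0.45 (SE 0.216) and DDIT4, an MTOR inhibitor, by 0.62 (SE 0.326) on the log2 scale (edgeR adjusted p = 1 for both). With T3 in EV cells only KLF9 passed, a transcription factor gene induced by both glucocorticoids and T3, with 14.1 ± 0.79 CPM under vehicle and 149 ± 23.6 with T3 (log2 3.41, edgeR adjusted p = 0.00272), in a comparison in which 0.229% of all genes passed.

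With T3 in TRB cells 3 of these 20 genes rose and 3 fell, beside 14.7% of all genes passing in either direction, 8.54% higher and 6.2% lower. KLF9 rose by 4.05 on the log2 scale (edgeR adjusted p = 5.25e-05). MT2A, a metallothionein, fell by 2.19 (edgeR adjusted p = 0.013), DDIT4 fell by 1.86 (edgeR adjusted p = 0.00388) and HSD11B2, which inactivates cortisol, fell by 1.86 (edgeR adjusted p = 0.0157). With T3 in EV cells DDIT4 differed by -1.69 (edgeR adjusted p = 0.103), MT2A by -0.29 and HSD11B2 by 0.09. Without TRB with T3 replicate 2, DDIT4 passed in EV cells too (log2 -1.71, edgeR adjusted p = 5.96e-05). The other genes that rose were BIRC3 and SLC19A2, a thiamine transporter. The list's median was 0.14, against 0.01 over all genes tested, and 0.48 against -0.01 without TRB with T3 replicate 2. MT2A no longer passed without TRB with vehicle replicate 1 or 2, nor HSD11B2 or BIRC3 without any 1 of the TRB libraries with vehicle, and SLC19A2 was lost in 7 of 12 such fits. Between the vectors under T3, BIRC3, an inhibitor of apoptosis (log2 2.13, edgeR adjusted p = 0.0334), and ERRFI1, a feedback inhibitor of the EGF receptor (log2 0.69, edgeR adjusted p = 0.0345), were higher in TRB cells and none was lower, which is 10% of the list beside 6.68% of all genes. The median was 0.18, against -0.01 over all genes (0.17 and 0.02 without TRB with T3 replicate 2). The same omission took BIRC3 from 1.84 to 1.00 for T3 in TRB cells and from 2.13 to 1.28 between the vectors, both still past the threshold. Leaving out single libraries ended the call of BIRC3 in 6 of 12 fits and that of ERRFI1 in 8 of 12.

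Serum also induces SGK1, and 17 genes of the serum-induced immediate early list were tested. Between the vectors under vehicle none passed, and the smallest p-values were those of CTGF, a secreted matrix protein (log2 0.70, SE 0.202), and CYR61, its relative (log2 0.55, SE 0.221, edgeR adjusted p = 1 for both). With T3 in EV cells none passed either: ATF3, a stress-induced transcription factor, differed by -1.58 (edgeR adjusted p = 0.146) and CTGF by 0.43 (edgeR adjusted p = 0.859). In TRB cells 2 of the 17 were called higher with T3, EGR3 among them, and 1 lower, a share of 17.6% beside 14.7% of all genes. CTGF stood at 11.7 ± 1.11 CPM with vehicle and 106 ± 23.6 with T3 (log2 3.17, edgeR adjusted p = 7.91e-06), and EGR3, an early transcription factor, at 0.697 ± 0.113 and 2.58 ± 0.364 (log2 1.88). In EV cells EGR3 averaged 0.487 ± 0.431 CPM with vehicle and 0.827 ± 0.107 with T3. EGR3 passed the count filter only through TRB with T3, so its call as higher there is a description and not a test. Counts of calls for the immediate early list include it. ATF3 fell by 1.97 (edgeR adjusted p = 0.00244). EGR3 did not pass without TRB with vehicle replicate 2 or 3. The list's median was -0.35 with all 12 libraries and -0.004 without TRB with T3 replicate 2. Under T3, CTGF was higher in TRB than in EV cells (log2 3.44, edgeR adjusted p = 2.52e-05) and EGR1, another early transcription factor, was lower (log2 -1.14, edgeR adjusted p = 0.0365), which is 11.8% of the 17 beside 6.68% of all genes. The median over the 17 was -0.39, and turned to 0.09 without TRB with T3 replicate 2. EGR1 lost its call in 10 of 12 fits without 1 library.

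Cell shrinkage induces SGK1 as well, and 9 of 11 listed genes of cell volume and osmotic stress were tested. None passed in any of the 4 comparisons, in which 213, 881, 4378 and 3679 genes of all those tested had an unadjusted p under 0.05 in the order vectors under vehicle, T3 in EV, T3 in TRB and vectors under T3. NFAT5, the transcription factor of the osmotic response, differed by 0.42 with T3 in TRB cells (SE 0.259, edgeR adjusted p = 0.286), or by 0.18 without TRB with T3 replicate 2. SLC38A2, an amino acid transporter, differed by -1.08 with T3 in EV cells (edgeR adjusted p = 0.434) and by -0.76 in TRB cells (edgeR adjusted p = 0.156), and CLCN3, a chloride transporter, by -0.57 in EV cells (edgeR adjusted p = 0.806). The heat shock genes HSPA1B and HSPA1A, near-identical copies whose reads may be split between them, differed by -0.52 and -0.39 between the vectors under vehicle (edgeR adjusted p = 1 for both) and by -0.41 and -0.92 under T3 (edgeR adjusted p = 0.343 and 0.131). Without TRB with T3 replicate 2, 3 of the 9 passed as lower with T3 in EV cells, beside 7.33% of all genes in either direction. For T3 in TRB cells 3 of the 9 passed as lower, among them SLC38A2 at -1.21, a share equal to the 33.3% of all genes. Between the vectors under T3, 1 of the 9 did so beside 19.7% of all genes, namely HSPA1A at -0.50.

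Among the related kinases and their activators, 10 of 11 genes were tested. SGK2, the third kinase of the family, averaged 22.2 ± 3.41 CPM in EV with vehicle, 35.6 ± 4.49 in EV with T3, 21.9 ± 0.74 in TRB with vehicle, and 19.6 ± 4.02 for TRB with T3 (SD, n = 3). It was lower in TRB than in EV cells under T3 (log2 -0.86, edgeR adjusted p = 0.0312), the opposite direction to SGK1, but the call was lost in 10 of 12 fits without 1 library. PRR5L, a partner of the MTOR complex that activates SGK1, was lower there too (log2 -1.58, edgeR adjusted p = 0.00774) and fell by 1.40 with T3 in TRB cells (edgeR adjusted p = 0.00695), from 26.1 ± 1.73 to 9.79 ± 3.18 CPM. It passed in each of the 12 fits without 1 library. No other gene of the list passed in these comparisons, so that 2 of 10 passed between the vectors under T3, beside 6.68% of all genes, and 1 of 10 for T3 in TRB cells, beside 14.7%. The medians were -0.35 and -0.15 in that order, and turned to 0.03 and 0.15 without TRB with T3 replicate 2. Under vehicle RICTOR differed by -0.34 and MAPKAP1, another partner of that complex, by -0.13 (edgeR adjusted p = 1 for both). With T3 in EV cells SGK2 differed by 0.68 (edgeR adjusted p = 0.407) and MTOR by 0.45 (edgeR adjusted p = 0.901).

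SGK1 substrates and effectors were represented by 23 tested genes of 29, as transcripts and not as phosphorylated proteins. NEDD4L, the best-known substrate, had 183 ± 8.19 CPM in EV with vehicle, 194 ± 24 in EV with T3, 157 ± 3.98 in TRB with vehicle, and 216 ± 53.4 for TRB with T3 (SD, n = 3) and passed in none of the 4 comparisons. NDRG1, whose phosphorylation is a common readout of SGK1, stood at 23.3 ± 1.1, 20.1 ± 1.5, 28.8 ± 2.32 and 74 ± 37.1 CPM in that order. It rose with T3 in TRB cells (log2 1.36, edgeR adjusted p = 0.0193) and was higher in TRB than in EV cells under T3 (log2 1.88, edgeR adjusted p = 0.00822). SCNN1A, the alpha subunit of the epithelial sodium channel, rose in TRB cells from 41.8 ± 1.78 CPM under vehicle to 431 ± 252 under T3 (log2 3.37, edgeR adjusted p = 0.00053). In EV cells it differed by 1.87 with T3 (edgeR adjusted p = 0.146), from 61.4 ± 4.61 to 224 ± 31.4 CPM, with SLC5A1, a glucose transporter, next at 0.60 (edgeR adjusted p = 0.605). TRB with T3 replicate 2 is not in that comparison but adds to the shared spread. Without that library SCNN1A passed in EV cells (log2 1.87, edgeR adjusted p = 8.44e-07), as did 7.33% of all genes.

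In all, 3 of the 23 (13%, beside 14.7% of all genes) rose and none fell with T3 in TRB cells, the third being GSK3B (log2 1.05, edgeR adjusted p = 0.00921), a kinase that SGK1 inhibits. Between the vectors under T3, NDRG1, FOXO1, a transcription factor held out of the nucleus when phosphorylated (log2 0.92, edgeR adjusted p = 0.0266), and GSK3B (log2 0.91, edgeR adjusted p = 0.0336) were higher in TRB cells and none was lower, again 13% but beside 6.68% of all genes. The medians were 0.41 and 0.10, against 0.01 and -0.01 over all genes, and without TRB with T3 replicate 2 they were 0.28 and 0.27, against -0.01 and 0.02. Without EV with T3 replicate 1 none of these 3 passed between the vectors, and NDRG1 then had an edgeR adjusted p of 0.0591; FOXO1 and GSK3B were also lost without EV with T3 replicate 3, and GSK3B without EV with vehicle replicate 3. The rise of NDRG1 in TRB cells was lost in 5 of 12 such fits. Under vehicle none of the 23 passed, with SCNN1A at -0.55 and WNK1, a kinase of salt transport, at -0.21 (edgeR adjusted p = 1 for both). Without TRB with T3 replicate 2 the counts became 10 higher and 3 lower for T3 in TRB cells and 6 higher and 1 lower between the vectors under T3, beside 33.3% and 19.7% of all genes.

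CLEC3A binds plasminogen, and 9 of 12 genes of the plasminogen system were tested. PLAT, tissue plasminogen activator, was not counted at all in the libraries of TRB with vehicle and EV with T3, and had 10 to 59 counts in TRB with T3 (3.87 ± 1.85 CPM). Against a floor of 3 counts per library it was at least 14.2-fold higher with T3 in TRB cells and at least 7.53-fold higher in TRB than in EV cells under T3. PLAT passed the count filter only through TRB with T3, so its calls as higher there are a description and not a test. The counts of calls for this list include it. SERPINE2, an inhibitor of plasminogen activators, fell with T3 in TRB cells from 131 ± 4.99 to 29.8 ± 9.74 CPM (log2 -2.14, edgeR adjusted p = 0.000135). S100A10, a plasminogen receptor, fell by 1.17 (edgeR adjusted p = 0.000838), and PLAUR, the urokinase receptor, rose by 1.16 (edgeR adjusted p = 0.0416). PLAUR lost its call in 11 of the 12 fits without 1 library, and S100A10 did not pass with GC offsets. That made 2 higher, PLAT among them, and 2 lower of 9, beside 14.7% of all genes, with a median of 0.06 (0.01 without TRB with T3 replicate 2).

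In TRB against EV cells under T3, SERPINE2 (log2 -0.88, edgeR adjusted p = 0.0365) and S100A10 (log2 -0.68, edgeR adjusted p = 0.0335) were lower, so that with PLAT 3 of 9 passed beside 6.68% of all genes, with a median of 0.15 (0.18 without TRB with T3 replicate 2). Both calls were lost in 9 of 12 fits without 1 library, and with GC offsets S100A10 turned to 0.23. With T3 in EV cells none of the 9 passed, with SERPINE2 at -1.13 (edgeR adjusted p = 0.0857) and S100A10 at -0.37 (edgeR adjusted p = 0.807). Under vehicle none passed, with PLAU, urokinase, at 0.53 (edgeR adjusted p = 1) and PLAT at or under the floor in both groups.

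Most cartilage matrix genes, among which CLEC3A is usually found, were too low to test: 5 of 26 listed genes were tested and COL2A1, the defining cartilage collagen, had no count in any library. MATN3, a cartilage matrilin, rose with T3 in TRB cells from 2.62 ± 0.297 to 9.15 ± 1.43 CPM (log2 1.79, edgeR adjusted p = 0.000335), and COL9A3, a collagen chain, fell by 1.57 (edgeR adjusted p = 0.036), which made 2 of 5 beside 14.7% of all genes. COL9A3 lost its call in 10 of 12 fits without 1 library. MATN3 was also higher in TRB than in EV cells under T3 (log2 0.86, edgeR adjusted p = 0.0385), where CLEC3A was lower, 1 of 5 beside 6.68% of all genes, though this call was lost in 7 of 12 such fits. With T3 in EV cells MATN3 differed by 1.14 (edgeR adjusted p = 0.105) and SOX9, the transcription factor of cartilage formation, by -0.55 (edgeR adjusted p = 0.277). Under vehicle MATN2, another matrilin, differed by 0.57 and SOX9 by -0.32 (edgeR adjusted p = 1 for both).

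Of the 30 other CLEC genes in the files only CLEC11A and CLEC16A were expressed highly enough to test, and CLEC3B, the nearest relative of CLEC3A, had 0 to 1 count per library. CLEC16A, a regulator of mitophagy, stood between 23.7 and 30.1 CPM in the group means. CLEC11A, a secreted growth factor, averaged 2.79 ± 1.71 CPM in EV with vehicle, 4.2 ± 2.28 in EV with T3, 2.64 ± 0.527 in TRB with vehicle, and 1.43 ± 1.24 for TRB with T3 (SD, n = 3). Neither passed in any comparison. The largest of their differences was that of CLEC11A between the vectors under T3 (log2 -1.34, SE 0.741, edgeR adjusted p = 0.266), which was -0.75 without TRB with T3 replicate 2.

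Without TRB with T3 replicate 2 more genes passed in most lists, as they did over all genes: 0.0742% between the vectors under vehicle, 7.33% for T3 in EV cells, 33.3% for T3 in TRB cells and 19.7% between the vectors under T3. No list gene passed under vehicle. For T3 in EV cells, 2 kinase genes passed as higher and none as lower, 1 glucocorticoid gene as higher and 3 as lower, 1 immediate early gene as lower, 2 substrates as higher and 1 as lower, 1 cartilage gene in each direction, and 2 of 10 plasminogen genes in each direction. For T3 in TRB cells the counts, higher and lower, were 2 and 1 for the kinase list, 7 and 6 for the glucocorticoid list, 3 and 1 for the immediate early list, 1 and 3 for the cartilage list and 4 and 3 for the plasminogen list. Between the vectors under T3 they were 0 and 2, 5 and 3, 4 and 1, 1 and 0, and 4 and 2 in the same order.

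**Figure D3:**
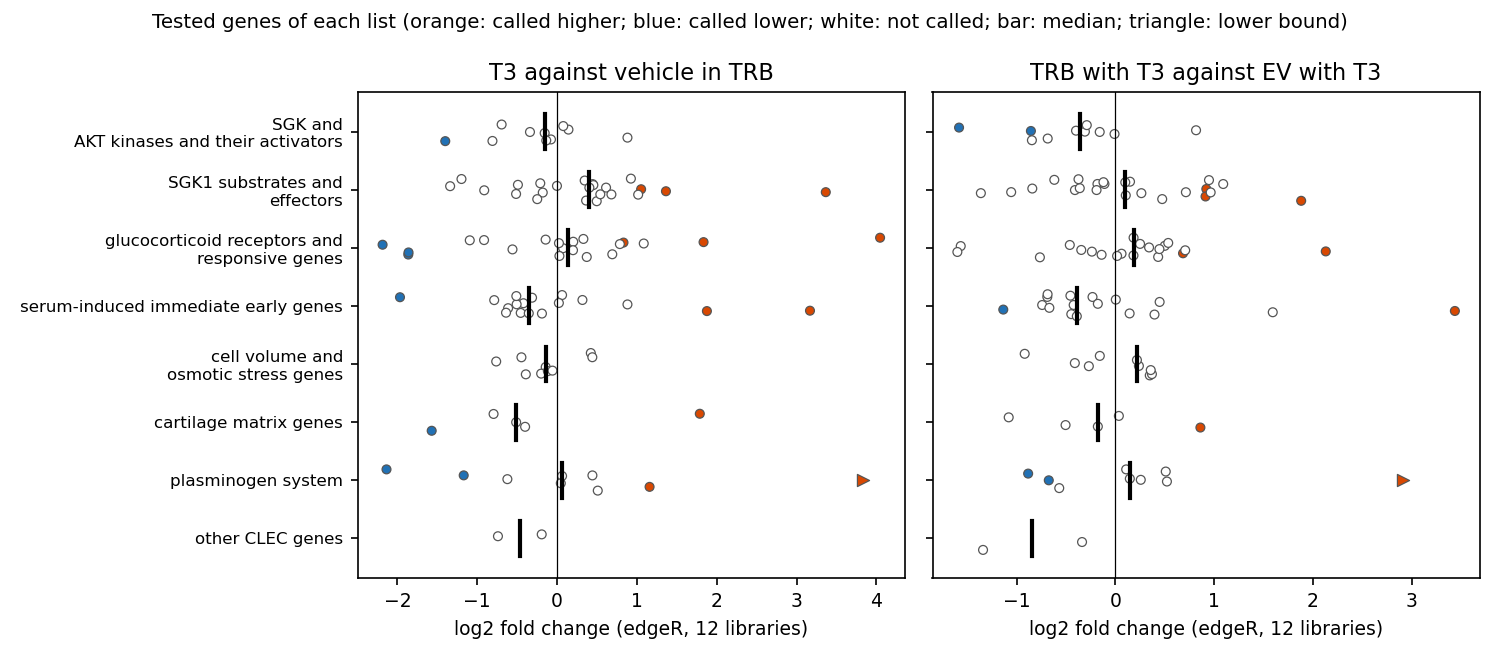
Log2 fold change of every tested gene of the 8 gene lists with T3 against vehicle in TRB cells (left) and in TRB against EV cells under T3 (right), from edgeR with 12 libraries; colours mark calls at an adjusted p of 0.05, bars the list medians, and the triangle the lower bound for PLAT. Called genes lie on both sides of 0 in several lists, and no gene of cell volume and osmotic stress or of the other CLEC genes was called.

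Genes whose levels followed each member most closely were found by Pearson correlation of log2 CPM over the 12 libraries, among 12503 genes. These points share libraries, depth and group structure, so the values are descriptions. SGK1 was followed most closely by MMP7, a metalloproteinase (r = 0.994), CEACAM1, an adhesion molecule (r = 0.992), MUC13, a mucin (r = 0.991), TBX3, a transcription factor (r = 0.986), and ABCG2, an efflux transporter (r = 0.984). All 5 had their group means in the order of SGK1. The span was widest for ABCG2, from 2.79 ± 0.549 CPM in TRB with vehicle to 373 ± 152 in TRB with T3 (SD, n = 3), and for MMP7, from 34.9 ± 4.15 to 2030 ± 560. CLEC3A was followed less closely, by SLC28A3, a nucleoside transporter (r = 0.958), FRY (r = 0.948), TGFBR3, a TGF-beta coreceptor (r = 0.939), GBP2, an interferon-induced GTPase (r = 0.917), and HLA-DMB, a chaperone of antigen presentation (r = 0.905). Of these, SLC28A3, FRY, TGFBR3 and GBP2 had their highest mean in EV with T3, as CLEC3A did, and HLA-DMB in TRB with T3. SLC28A3 went from 3.1 ± 0.447 CPM in TRB with vehicle to 13.8 ± 1.58 in EV with T3, a far narrower span than that of CLEC3A.

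For SGK3 the genes given are GID4 (r = 0.884), PPP2R1B (r = 0.879), MFSD14B (r = 0.877) and C1D (r = 0.875), 4 of the 5 closest, and without TRB with T3 replicate 2 their values were 0.772 to 0.799. For the SGK1 genes the same omission gave 0.983 to 0.995 and for the CLEC3A genes 0.904 to 0.962. Between the members themselves r was 0.808 for CLEC3A and SGK1, 0.274 for CLEC3A and SGK3 and 0.412 for SGK1 and SGK3, and over 11 libraries 0.822, 0.203 and 0.183. CLEC3A and SGK1 were both picked for low counts in TRB with vehicle, and SGK3 was not. The choice can therefore raise the r between CLEC3A and SGK1, by an amount that was not measured.

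**Figure D4:**
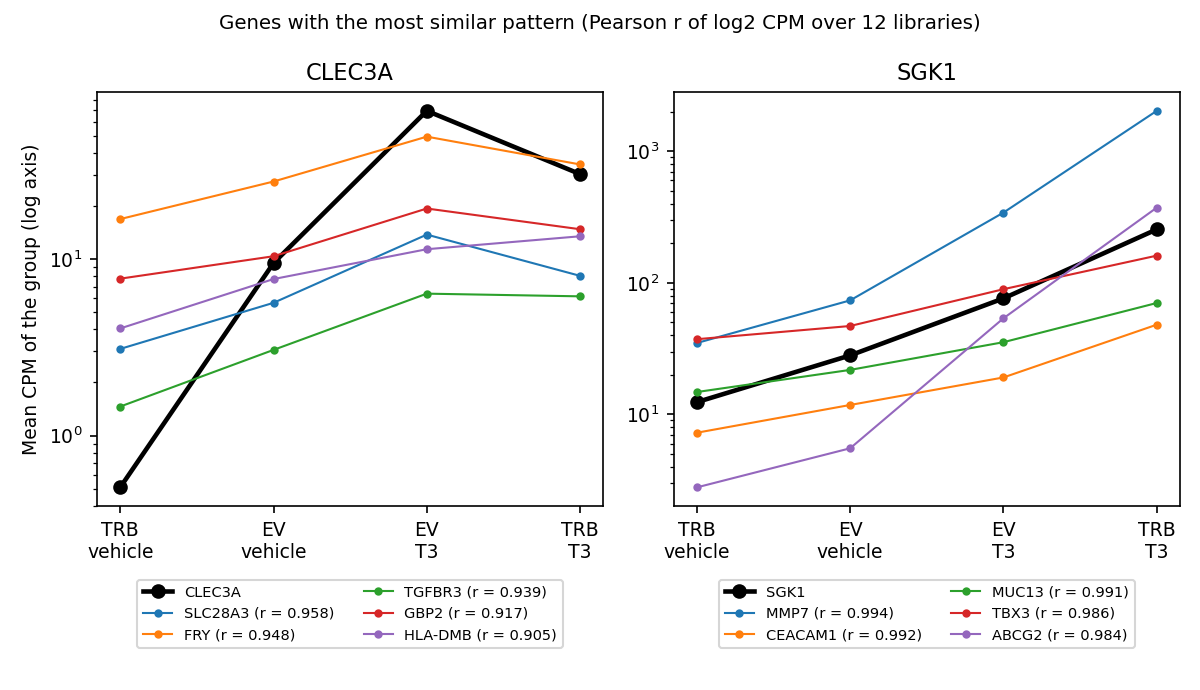
Mean CPM of each group (log axis) for CLEC3A and SGK1 (black) and the 5 genes most like each by Pearson correlation over 12 libraries. The genes like SGK1 climb from TRB with vehicle to TRB with T3, and 4 of those like CLEC3A are highest in EV with T3.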

How the data were processed

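Total RNA of SW1736 cells was sequenced in 12 libraries, grouped by the labels. The deposited values are raw counts for each symbol and library. Per the submitters' processing notes the tools included CASAVA 1.7, STAR 2.7, HTSeq 0.10 and DESeq2, with no roles or options given, and the build was hg38. Strand use in counting is not given in the sources used here. The 5 closing lines for reads of no gene were left out: 19% to 92% of what a file counts were alignments without a unique place, 2.14% to 24.4% fell in no feature and 0.258% to 1.81% were ambiguous. The authors' normalized table was not used. No libraries were identical, and the labels name no batch.

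The analysis used edgeR 4.0.16 under R 4.3.3: filterByExpr (minimum count 10, minimum total 15), TMM scaling, and a two-sided quasi-likelihood test with 1 coefficient per group over all 12 libraries, adjusted by Benjamini-Hochberg over 14431 genes at 0.05. SE was derived from the log2 fold change and its F statistic. The biological coefficient of variation was 0.329 with all libraries and 0.131 when TRB with T3 replicate 2 was left out.

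The members and gene lists were chosen with earlier results of these data known. In each comparison the text names, per list, up to 4 called genes with the largest change or, where none was called, the 2 with the smallest p; SGK2, CLEC3B, NR3C1, NR3C2, NEDD4L and NDRG1 are always given. Likeness was computed with a prior count of 2 for tested genes whose log2 CPM averaged 1 or more. Of the genes it gave for SGK3, 1 is not reported here. Alternatives were DESeq2 1.42.0, limma-voom (limma 3.58.1), other scalings and count filters, the compared groups alone, a replicate block, GC offsets (GC content from GENCODE release 29 by symbol, known for 84.2% of tested genes) and leaving out each library. Floors of 3 counts cover counting error only.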

Additional observations from a re-analysis of the deposited data

Results flagged for a closer look

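SGK1 is listed here because the difference between the vectors went opposite ways under the 2 treatments: every TRB library lay below every EV library with vehicle, and every TRB library lay above every EV library with T3. Of all genes tested, 20.5% lay lower in this way with vehicle and 11.6% higher with T3. On the log2 scale the vector difference under T3 exceeded that under vehicle by 2.92. This difference was not tested, because SGK1 was picked on its low level in TRB cells with vehicle. Over 22 alternatives it ranged from 2.31 to 2.97.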

How the results depend on the processing

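Between the vectors under T3, CLEC3A ranged from -1.68 to -1.12 (log2) over 23 alternatives and SGK1 from 1.33 to 1.82 over 24. Their calls were lost only with the compared groups alone (CLEC3A -1.18, edgeR adjusted p = 0.13; SGK1 1.75, edgeR adjusted p = 0.0572), and adjusted p-values reached at most 0.041 and 0.00214 when 1 library was left out. A filter of at least 10 counts in every library gave no value for CLEC3A. SGK3 passed under none. Its T3 difference in EV cells turned positive with GC offsets (0.13), with GC offsets and 11 libraries (0.087), with the replicate block and GC offsets (0.21) and without EV with vehicle replicate 3 (0.027, against -0.39 without EV with vehicle replicate 1). Its difference between the vectors under T3 turned negative with GC offsets (-0.079) and with the block and GC offsets (-0.11). S100A10 under T3 turned to 0.23 with GC offsets and 0.027 with the block added; the cause was not tested.

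The number of called list genes depended on the setting. It includes PLAT and EGR3 where they were called, although both passed the count filter only through TRB with T3. It was 0 between the vectors under vehicle (13 with the compared groups alone, 1 with GC offsets, 8 with GC offsets and 11 libraries, 1 with block and GC offsets). For T3 in EV it was 1 (8 with DESeq2, 2 with library size alone, 2 with at least 10 counts in every library, 6, 12, 22 and 11 in the order above). For T3 in TRB it was 19 (9, 47, 65 and 47), and between the vectors under T3 13 (5 with no count filter, then 1, 35, 46 and 36). Leaving out single libraries gave 0 in each fit under vehicle, then 1 to 19, 12 to 47 and 3 to 30 in the others, the highest each time without TRB with T3 replicate 2, the lowest for T3 in TRB without TRB with vehicle replicate 1 or 2, and the lowest under T3 without EV with T3 replicate 1. Over all genes the counts of 3, 33, 2128 and 964 became 11, 1087, 4938 and 2918 without TRB with T3 replicate 2, 7, 543, 5176 and 3493 with GC offsets, 1563, 200, 634 and 32 with the compared groups alone, and 8, 172, 3101 and 1905 with DESeq2. With library size alone the median of all genes moved to -0.139 for T3 in TRB and -0.109 between the vectors under T3.

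Replicate numbers are shared between groups, but same-numbered libraries deviated together in only some pairs (r from -0.19 to 0.728 over 18 pairs, against -0.716 to 0.632 over 36 other pairs), and 7 of 12 correlated best with their own number, so the numbers were not taken as pairs. With the replicate block CLEC3A was -1.20 (edgeR adjusted p = 0.0159), SGK1 1.74 (edgeR adjusted p = 0.000661) and SGK3 0.50 between the vectors under T3, and SGK3 was -0.24 under vehicle, -0.16 for T3 in EV and 0.59 for T3 in TRB. The block left 0, 1, 18 and 13 called list genes, and 2, 18, 2278 and 1068 called genes in all.

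The depth limits SGK3, with 15 to 78 counts per library, and CLEC3A in TRB with vehicle, with 4 to 8 counts.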
